A study of Mus musculus with 59 samples.

Results

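Synaptotagmins are a family of membrane-trafficking proteins, and the 10 family genes described here are Syt1, Syt2, Syt3, Syt4, Syt5, Syt7, Syt11, Syt12, Syt13 and Syt17. They were taken by symbol from 51456 Ensembl gene identifiers, of which 51285 matched GRCm38 gene models, and they are 10 of the 17 synaptotagmin genes found in the table. The 10 names were drawn up with earlier results of the same libraries known, among them the rise of Syt2 with fluoxetine in wild-type mice, so they count as chosen from measured levels of these libraries. Which further values entered the choice is not recorded. The comparison of WT fluoxetine with WT vehicle libraries is therefore given below as a description of the 10 genes, with no test. Fluoxetine comparisons between genotypes or sexes hold the same WT fluoxetine libraries, so nothing is read from their tests. All 10 genes passed the filter on low values, a mean over the libraries of 10 or more.

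Messenger RNA of the prefrontal cortex was sequenced from C57BL/6J mice at postnatal day 25. The mice were wild type (WT, 29 libraries) or heterozygous for Ank2 (HT, 30 libraries), the gene of the adaptor protein ankyrin-B. What the Ank2 alteration is, and in which cells, is not stated in the sources used here. From day 3 to day 24 the pups had received vehicle, the serotonin reuptake inhibitor fluoxetine or the mood stabilizer lithium through the milk of their mothers, so each pup's own dose was not measured. The 6 genotype and drug groups were WT vehicle (n = 10), WT fluoxetine (n = 9), WT lithium (n = 10), HT vehicle (n = 10), HT fluoxetine (n = 10) and HT lithium (n = 10). Each held 5 females and 5 males, except WT fluoxetine with 4 males. The labels call the libraries replicates and do not say whether each came from a separate animal or litter, so p-values measure the spread between these libraries. The values are estimated gene counts that the authors normalized, called levels below.

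Most synaptotagmins carry a membrane anchor and a tandem of C2 domains. In one class these domains bind calcium and then engage phospholipids and SNARE proteins, which couples calcium entry to the fusion of vesicles. Syt1 and Syt2 are the fast sensors of neurotransmitter release, and in the cortex Syt2 is known from the terminals of parvalbumin interneurons. Syt3 and Syt7 bind calcium with higher affinity, and Syt7 supports asynchronous release and facilitation. Syt4, Syt11, Syt12, Syt13 and Syt17 lack the usual set of calcium-binding residues.

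Ank2 was at 17431 to 22813 in the 30 HT libraries and at 23284 to 35821 in the 29 WT libraries, so the genotype labels were matched without overlap. The library sums of the levels were 30.3 to 33.8 M (M for mega), and the estimated depth was 25.9 to 36.5 M reads. Markers of neighbouring regions varied between libraries of the same group. The summed level of 6 olfactory bulb markers ran from 184 to 9381, and that of 9 striatal markers from 5413 to 22216. HT fluoxetine female replicate 2 stood apart, with a summed level of 78522 for 6 choroid plexus markers, against at most 477 in any vehicle library, and 7413 for 3 dentate gyrus markers, against at most 498 in any lithium library. By olfactory bulb, striatal and dentate gyrus marker levels, 19 libraries stood apart. Each comparison of the 10 genes, and each count of a gene list given below, was repeated without these 19, a setting chosen after seeing the data, and that value is given where a call or a count moved. Fluoxetine libraries also differed in the slope of gene levels on transcript length, which had a median of 0.05 in WT fluoxetine and -0.03 in WT vehicle libraries, and of 0.04 in HT fluoxetine and -0.03 in HT vehicle libraries.

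Syt2 (ENSMUSG00000026452, chr1:134646677-134762593, plus strand, GRCm38) had the largest log2 difference of the 10 in each comparison of a drug with vehicle. WT fluoxetine, which entered the choice of genes, is among these comparisons. Syt2 also varied most between libraries of a group. RefSeq places 2 transcription starts in it, and the 250 bases before each are shown because the gene-level values pool transcripts from both starts and cannot tell them apart. Capitals mark the letters of 2 motif cores searched on both strands. The Sp1 core was searched as GGGCGG. The core of the cyclic AMP response element, called the CRE core below, was searched as TGACG, and in these windows no match of either overlaps one of the other.
Syt2 upstream start, chr1:134646362-134646611: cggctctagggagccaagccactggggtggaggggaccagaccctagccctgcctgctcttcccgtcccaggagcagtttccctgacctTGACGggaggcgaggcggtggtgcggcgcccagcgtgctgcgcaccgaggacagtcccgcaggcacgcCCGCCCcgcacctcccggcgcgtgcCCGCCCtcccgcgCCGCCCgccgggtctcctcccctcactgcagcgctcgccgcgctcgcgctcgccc
Syt2 downstream start, chr1:134709050-134709299: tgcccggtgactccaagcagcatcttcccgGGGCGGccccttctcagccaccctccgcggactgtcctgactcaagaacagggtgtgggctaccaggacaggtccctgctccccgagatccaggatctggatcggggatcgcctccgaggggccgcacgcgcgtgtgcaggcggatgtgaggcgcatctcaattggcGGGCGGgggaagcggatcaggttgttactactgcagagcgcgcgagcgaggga
The first window held 3 matches of the Sp1 core and 1 of the CRE core, and the second held 2 and 0. The Sp1 core stood in 32.7% and the CRE core in 17.8% of all 32851 RefSeq promoter windows of this length. The full CRE palindrome, TGACGTCA, which contains the CRE core, was in neither window and in 1.55% of all. The windows held 30 and 22 CG dinucleotides, against a median of 6 over all windows. A match is a description of letters and not evidence of a bound site. The RefSeq promoter table (GRCm38.p6) held 4 of the 10 members.

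The 10 genes spanned a wide range of levels, compared here per kb of transcript (median length of the basic transcripts of a gene) as the mean over 59 libraries. Syt1 (ENSMUSG00000035864), the main fast calcium sensor of forebrain synapses, stood highest at 11509 per kb and made up 33.7% of the summed level per kb of all 17 synaptotagmin genes. Syt7 (ENSMUSG00000024743) followed at 7999 per kb and Syt11 (ENSMUSG00000068923), a regulator of endocytosis, at 5097 per kb. The rank of Syt7 rests on the length used, because with its longest transcript it was at 2058 per kb and at rank 5.

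The middle of the order held Syt5 (ENSMUSG00000004961), a calcium-binding vesicle protein, at 2371 per kb and Syt13 (ENSMUSG00000027220), a member without calcium binding, at 2077 per kb. Syt5 was above Syt13 in 54 of 59 libraries. Syt4 (ENSMUSG00000024261), known from dense-core vesicles and as a gene induced by neuronal activity, was at 1595 per kb and below Syt13 in 58 of 59 libraries. The other neighbours among the 10 kept their order in 59 of 59 libraries. Below them came Syt17 (ENSMUSG00000058420), which lacks a transmembrane segment, at 935 per kb, and Syt3 (ENSMUSG00000030731), a high-affinity sensor also found postsynaptically, at 496 per kb. Syt12 (ENSMUSG00000049303), a vesicle protein phosphorylated by protein kinase A, was at 270.2 per kb, and Syt2 was lowest of the 10 at 172 per kb.

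**Figure D1:**
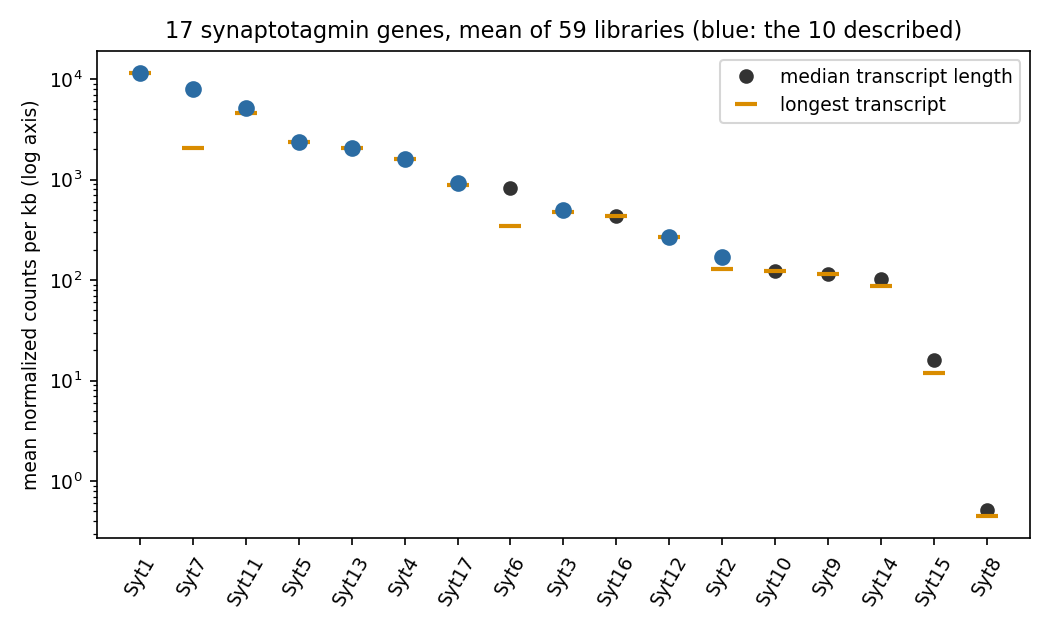
Mean level per kb of transcript over 59 libraries (log axis) of the 17 synaptotagmin genes, with circles for the median transcript length and bars for the longest transcript. Syt1 leads at 11509 per kb and Syt2 is the lowest of the 10 blue genes at 172 per kb, while Syt7 falls from 7999 to 2058 per kb with its longest transcript.

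Spread between libraries followed another order. The coefficient of variation within a group, taken as the median of the 6 groups, was 5.37% for Syt11 and 5.72% for Syt7, and it lay between 6.93% and 11.2% for the 7 members Syt1, Syt5, Syt4, Syt17, Syt3, Syt13 and Syt12. For Syt2 it was 24.0%, with 14.4% in HT lithium and 30.3% in WT vehicle libraries. HT fluoxetine female replicate 2, the library with choroid plexus and dentate gyrus markers, had the lowest level of all 59 for 4 members (Syt1, Syt4, Syt5 and Syt7) and the highest for Syt3. WT fluoxetine male replicate 1 had the lowest level for 3 members (Syt3, Syt13 and Syt17), and its olfactory bulb markers were 2.42 log2 units above the gene means.

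In vehicle libraries the HT and WT levels of the 10 genes lay close together. None of the 10 passed between HT and WT (limma, adjusted p under 0.05), beside 0.00591% of all 16908 genes tested. At an unadjusted p under 0.05 the count of members was also 0. The log2 differences (HT minus WT) ran from -0.06 for Syt17 to 0.08 for Syt3, with a median of 0.00 over the members and 0.00 over all genes. For Syt1 the 95% interval of the log2 difference was -0.12 to 0.08 and for Syt7 it was -0.08 to 0.09. For Syt2 it was wider, -0.29 to 0.39.

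Among fluoxetine libraries 0 of 10 members passed between genotypes (limma; 0 at an unadjusted p under 0.05), beside 0.0118% of all genes. This comparison holds the WT fluoxetine libraries that entered the choice of genes, so nothing is read from this count. Among lithium libraries 0 of 10 passed as well, beside 0.55% of all genes, with 3 at an unadjusted p under 0.05. There all 10 log2 differences were above 0, from 0.01 for Syt12 to 0.34 for Syt2 (SE 0.17, adjusted p = 0.3 by limma). Of lists described below, 16 of 16 genes of SNAREs and their regulators, 10 of 11 active zone and 11 of 13 vesicle endocytosis genes were also above 0. So were 11 of 16 synaptic vesicle genes, but only 1 of the 6 other synaptotagmin genes tested. Of marker lists, 6 of 6 excitatory neuron markers (median 0.17) and 0 of 6 olfactory bulb markers (median -1.18) were above 0. Over all genes the median was 0.00, and the share above 0 was not counted. Syt9 and Syt10 had their lowest level of all 59 libraries in HT lithium male replicate 2. Olfactory bulb markers of that library stood at -3.14 log2 units from the gene means. The part of dissection in these signs was not tested.

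Fluoxetine in WT mice was compared with WT vehicle. Syt2 was at 424, 716 and 1056 (lowest, median and highest) in vehicle and at 611, 1151 and 1348 in fluoxetine libraries, with means of 690 ± 209 (SD, n = 10) and 1082 ± 257 (SD, n = 9), the groups overlapping. It was above the highest vehicle library in 5 of 9 fluoxetine libraries and above the vehicle median in 8 of 9. The log2 difference was 0.65 (SE 0.17), with 0.82 in females and 0.48 in males. Of all genes 14.8% passed in this contrast (limma, adjusted p under 0.05) and of the 10 members 1 did, a count from which nothing is read, since the choice of members used this contrast. Without the 19 libraries that stood apart in regional markers the log2 difference was 0.44.

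The other 9 members differed less in WT fluoxetine libraries. Syt1 was at 47724, 54441 and 60674 in vehicle and at 54108, 57537 and 66376 in fluoxetine libraries. Its log2 difference was 0.13 (SE 0.05), and 8 of 9 fluoxetine libraries lay above the vehicle median. With the trend on length and GC content removed it was 0.06. Syt7 was at 0.08 (SE 0.04), and with that trend removed it was at 0.14. The other members ran from -0.11 for Syt17 to 0.12 for Syt12. The median log2 difference was 0.07 over the 10 members and 0.00 over all genes, with 9 of 10 above 0.

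**Figure D2:**
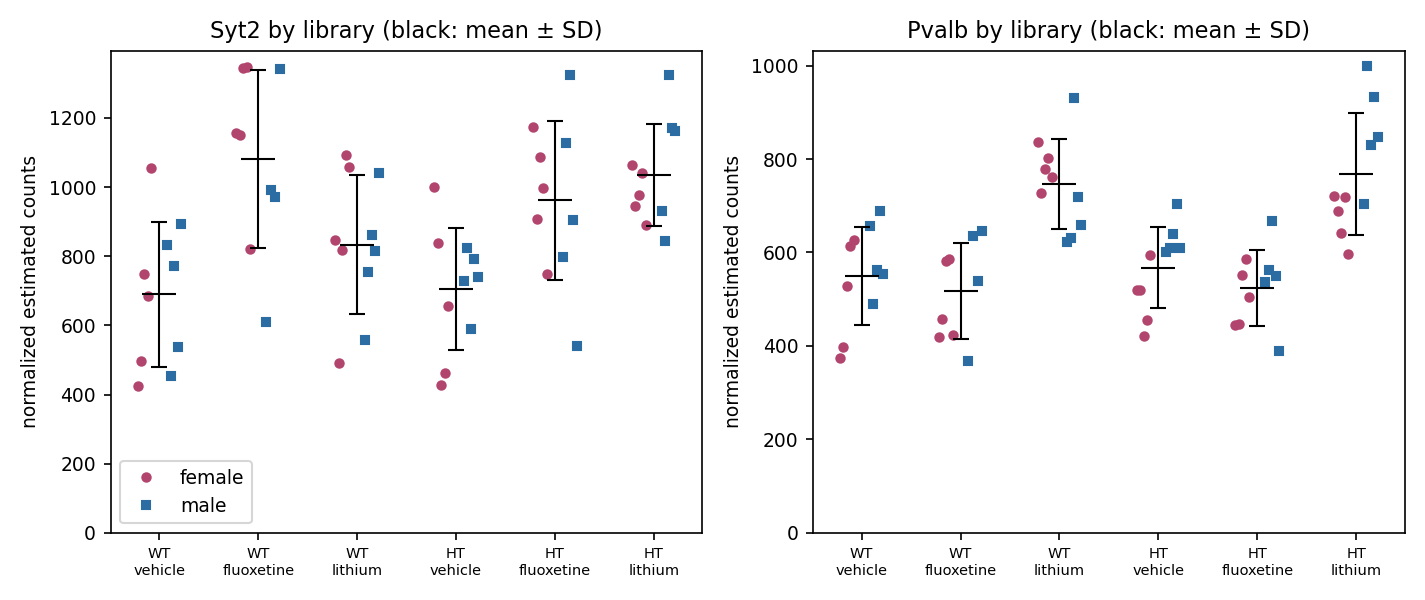
Levels (normalized estimated counts, axes from 0) of Syt2 and of Pvalb, the gene of parvalbumin, in each of 59 libraries by group and sex, with the mean and SD in black. Syt2 had a median of 716 in WT vehicle, 1151 in WT fluoxetine, 735 in HT vehicle and 1009.5 in HT lithium libraries, and Pvalb was higher in both lithium groups than in vehicle.

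In HT mice the fluoxetine and vehicle libraries are other libraries than the WT ones. The labels do not say whether WT and HT libraries share litters, so the HT comparison is not taken as an independent repeat. Syt2 was at 427, 735 and 999 in HT vehicle and at 540.2, 954 and 1325 in HT fluoxetine libraries, with means of 706 ± 176 (SD, n = 10) and 962 ± 230 (SD, n = 10). It was above the highest vehicle library in 4 of 10 and above the vehicle median in 9 of 10 fluoxetine libraries, so the groups overlapped. The log2 difference was 0.45 (SE 0.17, 1.36-fold) and did not pass (adjusted p = 0.064 by limma). It passed when any 1 of 4 libraries was left out (HT fluoxetine female replicate 5, HT fluoxetine male replicate 5, HT vehicle female replicate 1 or HT vehicle female replicate 2), with adjusted p from 0.023 to 0.15 over the 20 libraries left out in turn. Without the 19 libraries that stood apart it was 0.20 (adjusted p = 0.67).

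None of the other 9 members passed in HT fluoxetine libraries either, so the count was 0 of 10 by limma (1 at an unadjusted p under 0.05), beside 14% of all genes. Their log2 differences ran from -0.06 for Syt4 to 0.10 for Syt12, and the median of the 10 was 0.06 against 0.00 over all genes. Syt4 was at 3794, 6109 and 7149 in fluoxetine libraries, the lowest being HT fluoxetine female replicate 2, and at 5353, 6090.4 and 7414 in vehicle libraries. Without that library the difference of Syt4 was 0.01 in place of -0.06, and that of Syt1 0.10 (adjusted p = 0.12) in place of 0.07 (adjusted p = 0.41). The response to fluoxetine was not called different between genotypes for any of the 10 (limma; 1 at an unadjusted p under 0.05, beside 0% of all genes called and 1291 at an unadjusted p under 0.05). The member with that p was Syt17, at -0.11 in WT and 0.08 in HT (difference 0.20, SE 0.10, adjusted p = 0.65). For Syt2 the difference between genotypes was -0.20 (95% interval -0.69 to 0.28). Each of these differences between genotypes holds the WT fluoxetine contrast that entered the choice of genes, so nothing is read from its test.

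**Figure D3:**
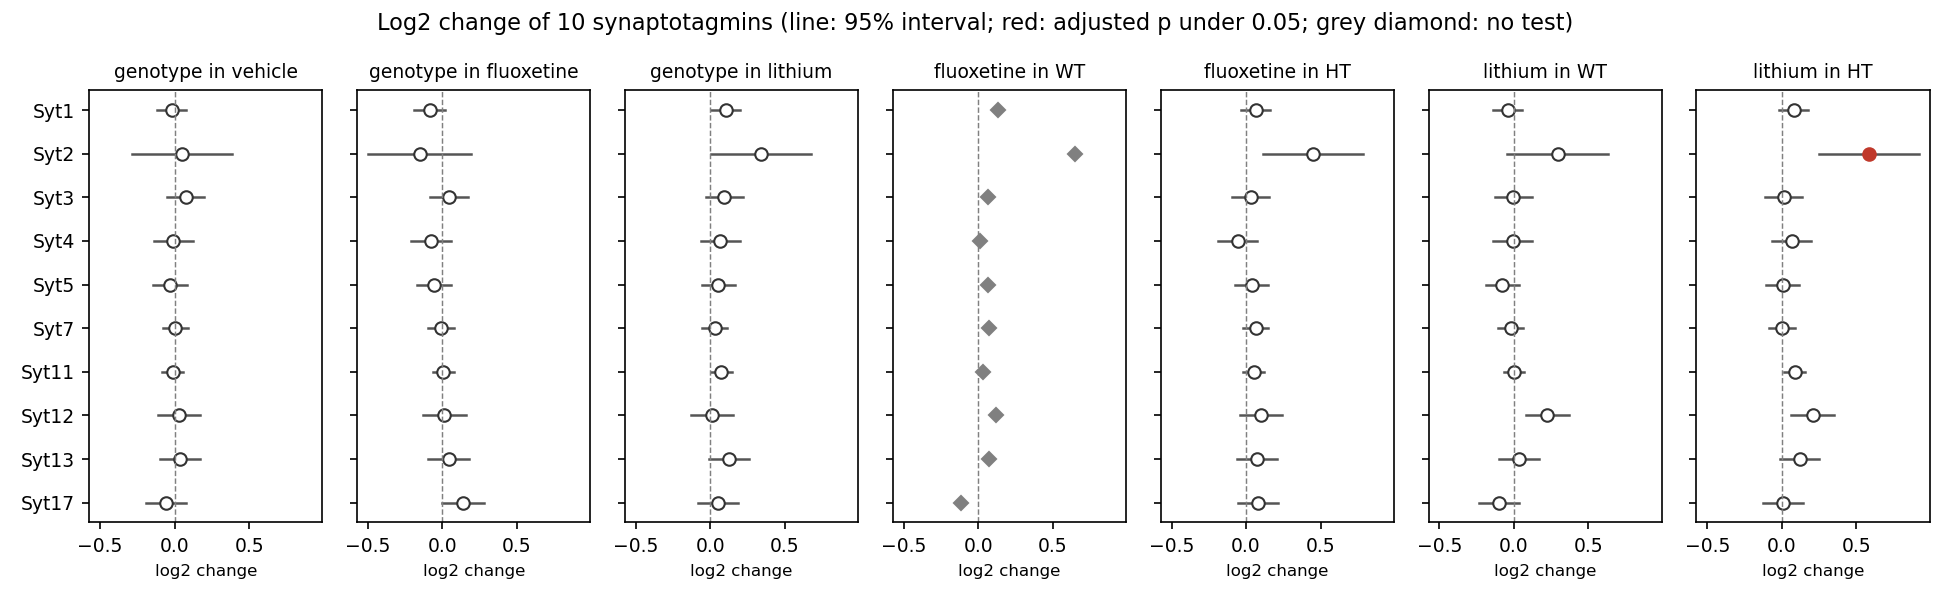
Log2 differences of the 10 genes in 7 comparisons (HT minus WT, or drug minus vehicle), with circles and 95% intervals, red for adjusted p under 0.05 by limma, and grey diamonds without interval or test for WT fluoxetine, which entered the choice of genes. Syt2 in HT lithium (0.58) is the 1 red circle, a call lost without the 19 libraries that stood apart, and its diamond stands at 0.65. Genotype in fluoxetine uses the same WT fluoxetine libraries, so nothing is read from its intervals.

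Lithium in HT mice was compared with HT vehicle. Syt2 was at 427, 735 and 999 in HT vehicle libraries and at 844, 1009.5 and 1325 in HT lithium libraries, with means of 706 ± 176 (SD, n = 10) and 1035 ± 149 (SD, n = 10). It was above the vehicle median in 10 of 10 lithium libraries and above the highest vehicle library in 5 of 10, so the groups overlapped. Syt2 rose by 0.58 on the log2 scale (SE 0.17, 95% interval 0.25 to 0.92, adjusted p = 0.033 by limma), with 0.62 in females and 0.55 in males. It was the 1 member of 10 to pass, beside 5.01% of all genes, and 3 of 10 had an unadjusted p under 0.05.

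The call was lost when any 1 of 5 libraries was left out (HT lithium male replicate 3, HT lithium male replicate 4, HT vehicle female replicate 3, HT vehicle female replicate 4 or HT vehicle male replicate 3), with the log2 difference of Syt2 between 0.51 and 0.66 and adjusted p up to 0.086. It was also lost with no filter on low values (adjusted p = 0.061). With olfactory bulb and striatal marker levels as covariates, added after seeing the data, the difference was 0.49 (adjusted p = 0.062), and without the 19 libraries that stood apart it was 0.55 (adjusted p = 0.15). The HT lithium comparison shares the HT vehicle libraries with the HT fluoxetine one, and the WT comparisons likewise share the WT vehicle libraries.

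Markers of parvalbumin interneurons and of excitatory neurons were set beside Syt2. Of 7 parvalbumin interneuron markers, 3 rose in HT lithium (limma), beside 2.75% of all genes, namely Pvalb itself (0.43, SE 0.10, adjusted p = 0.0058), the neurofilament gene Nefh (0.37, adjusted p = 0.00056) and the fast potassium channel gene Kcnc1 (0.17, adjusted p = 0.0018). The summed level of all 7 markers was 7655 to 8962 in HT vehicle and 9127 to 10522 in HT lithium libraries, which did not overlap, and none of the 7 was at 0 in a group. The share of all genes without overlap between these groups was not counted. By mean log2 deviation from the gene means, where each of the 7 markers weighs the same, the groups did overlap. That level was -0.37 to 0.27 in HT vehicle and 0.03 to 0.43 in HT lithium libraries. In WT libraries it was -0.505 to 0.19 in vehicle and -0.18 to 0.25 in lithium, also overlapping. In bulk tissue more cells of a type and more RNA per cell cannot be told apart. In WT lithium libraries the summed level was 9133 to 10257 against 7794 to 8950 in vehicle, with Pvalb (0.46, SE 0.10, adjusted p = 0.0043) and Kcnc1 (0.18) higher, beside 1.33% of all genes. Only 5 of the 7 log2 differences were above 0 in WT lithium, against 7 of 7 in HT lithium. When the 19 libraries that stood apart were left out Pvalb (0.39) and Nefh (0.37) rose in HT lithium, and in WT lithium Pvalb (0.27) and Kcnc1 (0.19) rose and Lhx6, a transcription factor gene of these interneurons, fell (-0.29).

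With fluoxetine, where the Syt2 differences were 0.65 and 0.45, the median log2 difference of the 7 parvalbumin markers was -0.02 in WT and 0.01 in HT libraries. Without the 19 libraries these medians were -0.17 in WT and 0.07 in HT. With lithium the median was 0.18 in WT and 0.24 in HT libraries, and 0.07 and 0.17 without the 19 libraries. The summed level in fluoxetine libraries was 7554 to 9539 in WT and 7707 to 9512 in HT, overlapping vehicle. Kcnc1 was called higher in WT fluoxetine (0.11), beside 7% of all genes, and Tac1, which is also a striatal marker, lower in HT fluoxetine (-0.50), beside 7.38% of all genes. Without HT fluoxetine female replicate 2 Tac1 was not called. Without the 19 libraries 1 of the 7 was higher and 1 lower in WT fluoxetine, beside 2.66% and 3.93% of all genes. In HT fluoxetine 0 of the 7 were then called.

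Of 6 excitatory neuron markers, 2 rose in HT fluoxetine (limma), beside 6.64% of all genes, the transcription factor gene Neurod2 (0.30) and the kinase gene Camk2a (0.27), and Neurod2 rose in HT lithium (0.31). In WT fluoxetine and WT lithium 0 of the 6 were called, with 3 and 0 at an unadjusted p under 0.05. All 6 log2 differences were above 0 in WT fluoxetine (median 0.17) and in HT lithium (median 0.16), and 4 of 6 in HT fluoxetine (median 0.10) and in WT lithium (median 0.04). The summed level was 110849 to 161585 in WT vehicle, 119567 to 174464 in WT fluoxetine and 116599 to 156291 in WT lithium libraries. In HT libraries it was 125000 to 160960 in vehicle, 150558 to 193171 in fluoxetine and 138611 to 176591 in lithium, so groups overlapped, and none of the 6 was at 0 in a group. When the 19 libraries were left out 1 rose in HT fluoxetine, Camk2a, and 0 in HT lithium, and the medians were 0.10 in WT fluoxetine, 0.09 in HT fluoxetine, 0.07 in HT lithium and -0.08 in WT lithium. The part of either marker list in the Syt2 values was not tested.

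In WT lithium libraries Syt2 was at 491, 832 and 1094, with a mean of 834 ± 201 (SD, n = 10), against 424, 716 and 1056 in vehicle. The log2 difference was 0.29 (SE 0.17) and did not pass (adjusted p = 0.46 by limma), with 2 of 10 lithium libraries above the highest vehicle library. No member passed, beside 2.22% of all genes, and 1 of 10 had an unadjusted p under 0.05. The lithium response of Syt2 differed between genotypes by 0.29 (HT minus WT, 95% interval -0.19 to 0.77, adjusted p = 0.83), and none of the 10 was called in that comparison (limma; 0 at an unadjusted p under 0.05, beside 0% of all genes called and 1138 at an unadjusted p under 0.05).

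Syt12 lay next to the threshold with lithium in each genotype. It was at 718, 862 and 1009 in WT vehicle and at 906, 997 and 1370 in WT lithium libraries, where 10 of 10 were above the vehicle median. The log2 difference was 0.22 (SE 0.07, adjusted p = 0.08 by limma). In HT mice Syt12 was at 771, 920 and 1117 in vehicle and at 875, 1039 and 1252 in lithium libraries, 8 of 10 above the vehicle median, and the difference was 0.21 (SE 0.07, adjusted p = 0.074). Neither passed with all libraries. Syt12 passed in WT without WT vehicle female replicate 4 (adjusted p = 0.0497 at the lowest of 20 libraries left out), and in HT without HT lithium female replicate 3, HT lithium female replicate 5, HT vehicle female replicate 1 or HT vehicle male replicate 1 (lowest 0.034). Without the 19 libraries that stood apart it was 0.11 (adjusted p = 0.43) in WT and 0.13 (adjusted p = 0.48) in HT.

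The remaining members showed small values with lithium. Syt11 was at 19953, 22831 and 24834 in HT vehicle and at 22748, 23970 and 25697 in HT lithium libraries (log2 difference 0.09, SE 0.03, adjusted p = 0.13). Its difference in WT was 0.00. Syt13 was 0.12 higher in HT lithium libraries (SE 0.07, adjusted p = 0.31) and 0.03 in WT. Syt7 was at 0.00 in HT (95% interval -0.08 to 0.09) and -0.02 in WT (interval -0.11 to 0.06), the narrowest bounds after Syt11. The medians of the 10 were 0.07 in HT and -0.01 in WT, against 0.00 for all genes in each.

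**Figure D4:**
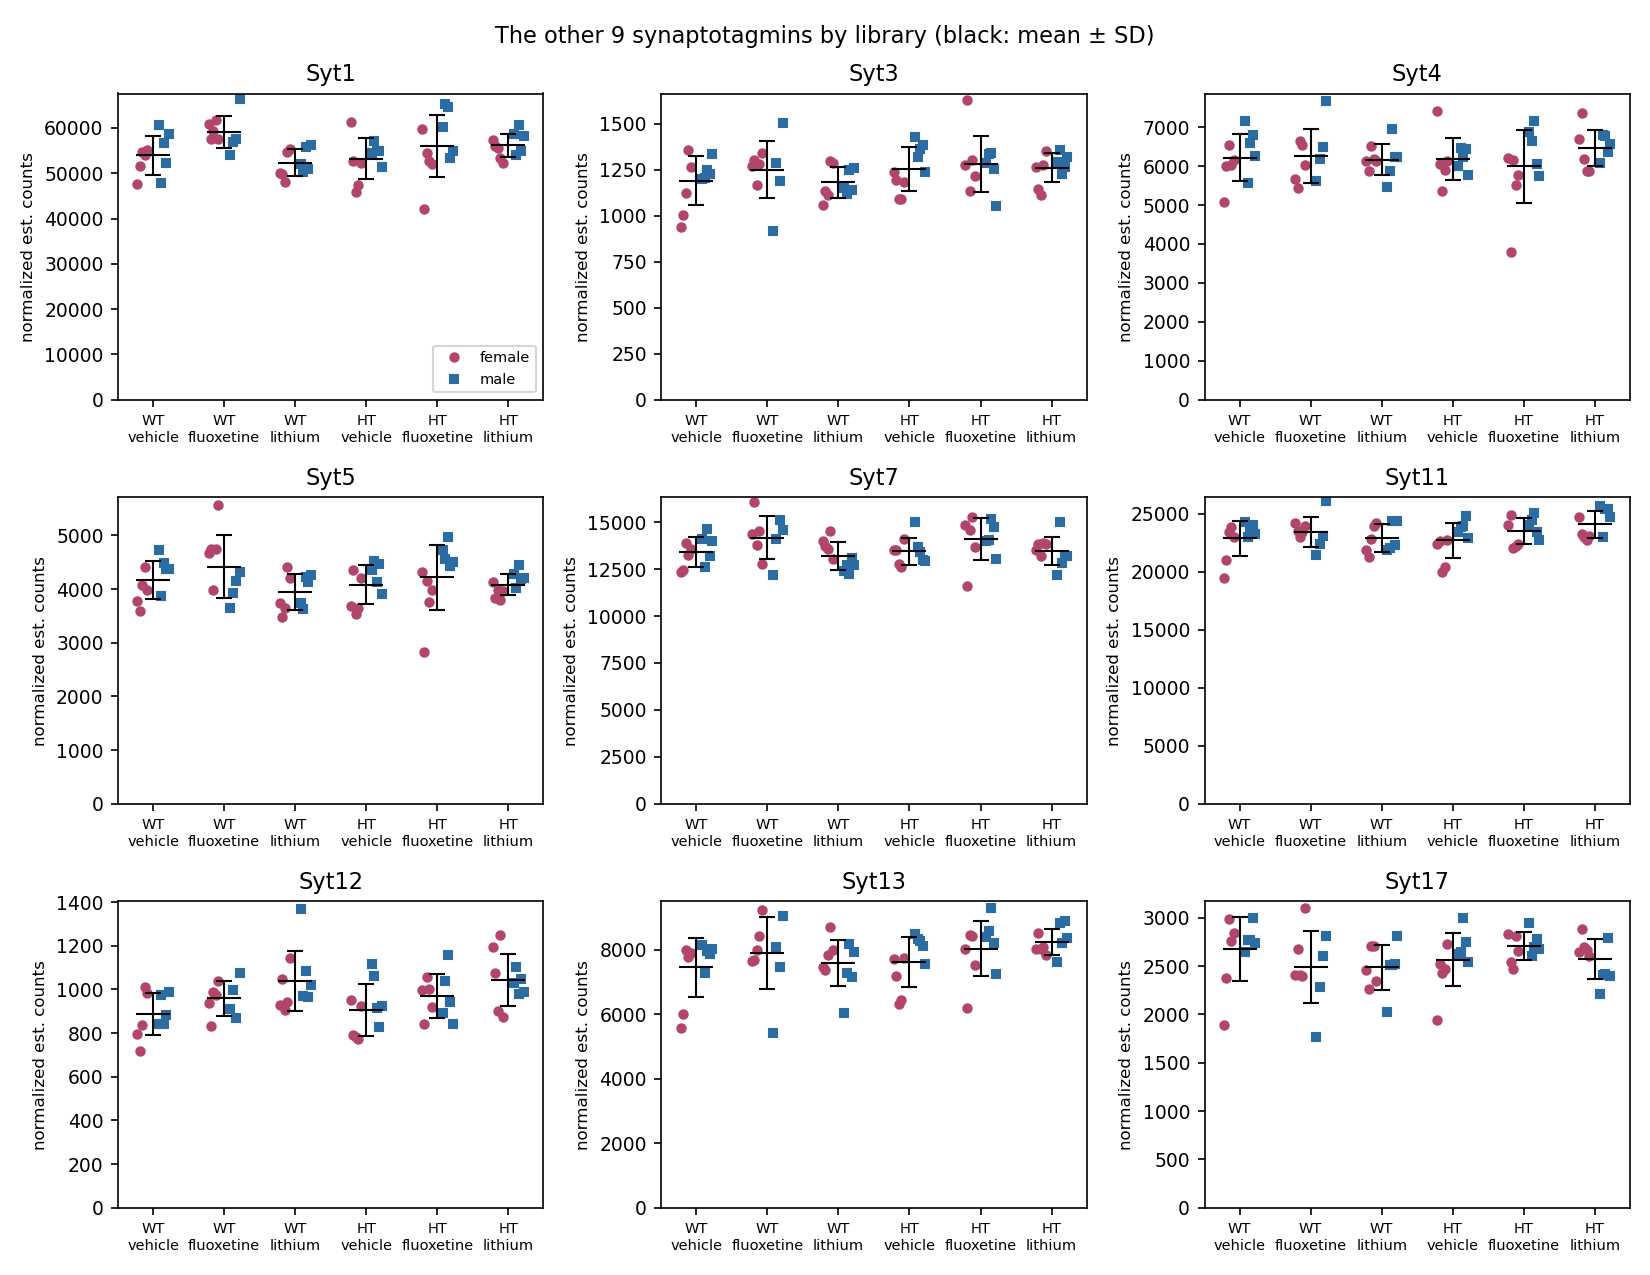
Levels (normalized estimated counts, axes from 0) of the other 9 genes in each library by group and sex, with the mean and SD in black. Groups overlap for every gene, and single low points of Syt1, Syt4, Syt5 and Syt7 in HT fluoxetine are all 1 library, female replicate 2.

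Sex was compared over all groups, with 30 female and 29 male libraries. None of the 10 passed, beside 2.09% of all genes, and 4 had an unadjusted p under 0.05. Syt11 was nearest, 0.06 lower in females (log2 difference -0.06, SE 0.02, adjusted p = 0.095 by limma). It passed with the trend on length and GC content removed (-0.07, adjusted p = 0.043) and without WT fluoxetine male replicate 1, and it was -0.04 (adjusted p = 0.46) without the 19 libraries that stood apart. The fluoxetine response differed between the sexes (female minus male) by 0.25 for Syt3 (SE 0.09, adjusted p = 0.26) and by 0.32 for Syt2 (SE 0.24, adjusted p = 0.6). For neither drug was a member called (limma; 4 and 3 at an unadjusted p under 0.05, beside 0% of all genes called and 2145 and 2500 at an unadjusted p under 0.05). The fluoxetine comparison between the sexes holds the WT fluoxetine libraries too, so nothing is read from its tests.

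Since neuronal activity is known to induce Syt4, a list of 8 activity-induced genes was set beside it. All 8 fell in HT fluoxetine libraries (median log2 difference -0.77), beside 7.38% of all genes, with the transcription factor genes Egr2 (-1.47), Fos (-1.28) and Egr1 (-0.65) at the smallest p, where Syt4 was at -0.06 (SE 0.07, adjusted p = 0.62). With the 19 libraries left out these 3 fell and the other 5 were not called (median of the 8 -0.76). In WT fluoxetine 0 of 8 were called (limma; 1 at an unadjusted p under 0.05; median -0.23). In WT lithium libraries 7 of the 8 rose (median 0.95), beside 1.33% of all genes, and Syt4 was at -0.01 (SE 0.07, adjusted p = 0.98). With the 19 libraries left out 8 of the 8 rose in WT lithium (median 1.05), beside 2.2% of all genes. In HT lithium 0 of 8 were called (limma; 4 at an unadjusted p under 0.05; median 0.39). The difference between Syt4 and the list was not tested.

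The partners of synaptotagmins in vesicle fusion were described from lists chosen with earlier results known. The slope on transcript length in which fluoxetine libraries differed was not removed for these lists, nor for the marker and activity-induced lists. Its part in their counts and medians was not tested. Of all genes, 7% were higher and 7.78% lower in WT fluoxetine, and 6.64% higher and 7.38% lower in HT fluoxetine. With lithium 1.33% were higher and 0.893% lower in WT, and 2.75% higher and 2.26% lower in HT. Of 16 genes of SNAREs and their regulators, 3 rose in WT fluoxetine (Stxbp5, the tomosyn gene, 0.24, Vamp2, the vesicle SNARE, 0.13, and the priming factor gene Unc13c, 0.22) and 6 rose in HT fluoxetine libraries, with a median of 0.08 and 0.10. In lithium libraries 2 of 16 rose in HT and 0 in WT. Of 11 active zone genes, 5 rose in WT fluoxetine and 4 in HT fluoxetine (median 0.14 and 0.11), among them the scaffold genes Bsn (0.24 and 0.23) and Pclo (0.23 and 0.15) and the presynaptic calcium channel gene Cacna1a (0.17 and 0.23). The channel opens the path of calcium to the sensors. In HT lithium libraries 2 of 11 rose and in WT lithium 0.

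Of 16 synaptic vesicle genes, 2 rose with fluoxetine in each genotype (median -0.01 in WT and 0.04 in HT), the synapsin genes Syn1 (0.25 and 0.21) and Syn3 (0.28 and 0.19), and 0 with lithium. Of 13 genes of vesicle endocytosis, 6 rose and 1 fell in WT fluoxetine, and 5 rose and 1 fell in HT fluoxetine, with medians of 0.10 and 0.09 and 0 of 13 called with lithium. The dynamin gene Dnm1 was at 0.21 and 0.28 and the adaptor subunit gene Ap2s1 at -0.30 and -0.18. Of 10 dense-core vesicle genes, 0 were called in WT fluoxetine and 1 fell in HT fluoxetine, the chaperone gene Scg5 (-0.17), with medians of 0.07 and 0.05. In HT lithium 2 of these 10 rose and 1 fell, and in WT lithium 0 were called. Of 12 tested genes of other proteins with tandem C2 domains, 1 rose in WT fluoxetine, the extended synaptotagmin gene Esyt2 (0.18), which tethers the endoplasmic reticulum to the plasma membrane, and 0 were called in HT fluoxetine or with lithium (median 0.08 in each fluoxetine comparison). Medians over all genes were 0.00 in these 4 comparisons.

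Without the 19 libraries that stood apart fewer of these genes rose with fluoxetine, and so did fewer of all genes. Of all genes, 2.66% were then higher and 3.93% lower in WT fluoxetine, 1.38% and 1.86% in HT fluoxetine, 2.2% and 2.06% in WT lithium, and 0.219% and 0.118% in HT lithium. Of the SNARE list 1 rose in WT fluoxetine and 2 in HT fluoxetine, and of the active zone list 2 in each. Of the synaptic vesicle list 1 rose and 1 fell in WT fluoxetine and 1 rose in HT fluoxetine, and the endocytosis list had the same counts. Of the dense-core vesicle list 1 fell in WT fluoxetine and 0 were called in HT fluoxetine. Of the list of tandem C2 domains 1 rose in WT fluoxetine and 0 were called in HT fluoxetine. In WT lithium, where 0 genes of these 6 lists were called with all libraries, 4 of the SNARE, 4 of the synaptic vesicle, 2 of the active zone, 2 of the endocytosis and 1 of the tandem C2 list were lower, and of the dense-core vesicle list 1 was higher and 1 lower. In HT lithium 1 gene of the SNARE list rose and 0 of the other 5 lists were called.

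Within groups the members varied together to different degrees. The values given are Pearson r over 59 libraries of log2 levels after the mean of each of 12 genotype, drug and sex groups was subtracted, and they are descriptions, since all genes of a library share its dissection, depth and normalization. The pair Syt1 and Syt4 had r = 0.79, Syt4 and Syt13 had 0.72, and Syt3 and Syt11 also 0.72. Syt2 was nearest to Syt1, its closest relative, at 0.71. The lowest values were those of Syt12 with Syt17 (-0.04) and of Syt7 with Syt11 (0.09).

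Marker levels followed some members closely. Syt13 had r = 0.95 with the level of 6 excitatory neuron markers, and Syt4 0.83. With 7 parvalbumin interneuron markers Syt13 had 0.77, Syt2 0.69 and Syt4 0.66, and the other 7 members 0.32 to 0.55. With excitatory markers Syt2 had 0.69. With olfactory bulb markers all 10 values were below 0, lowest for Syt3 (-0.63), Syt11 (-0.56), Syt13 (-0.56) and Syt17 (-0.52), and -0.39 for Syt2. The lowest Syt2 level of WT vehicle, 424 in female replicate 1, and that of HT vehicle, 427 in female replicate 3, were in libraries whose olfactory bulb markers stood 2.59 and 2.10 log2 units above the gene means. The median summed olfactory bulb level was 2303 in HT vehicle, 994 in HT fluoxetine and 1727 in HT lithium libraries. In WT it was 2762 in vehicle, 2588 in fluoxetine and 3414 in lithium libraries. With olfactory bulb and striatal marker levels as covariates the fluoxetine differences of Syt2 were 0.61 in WT and 0.33 in HT (adjusted p = 0.21 in HT), beside 0.44 and 0.20 without the 19 libraries.

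**Figure D5:**
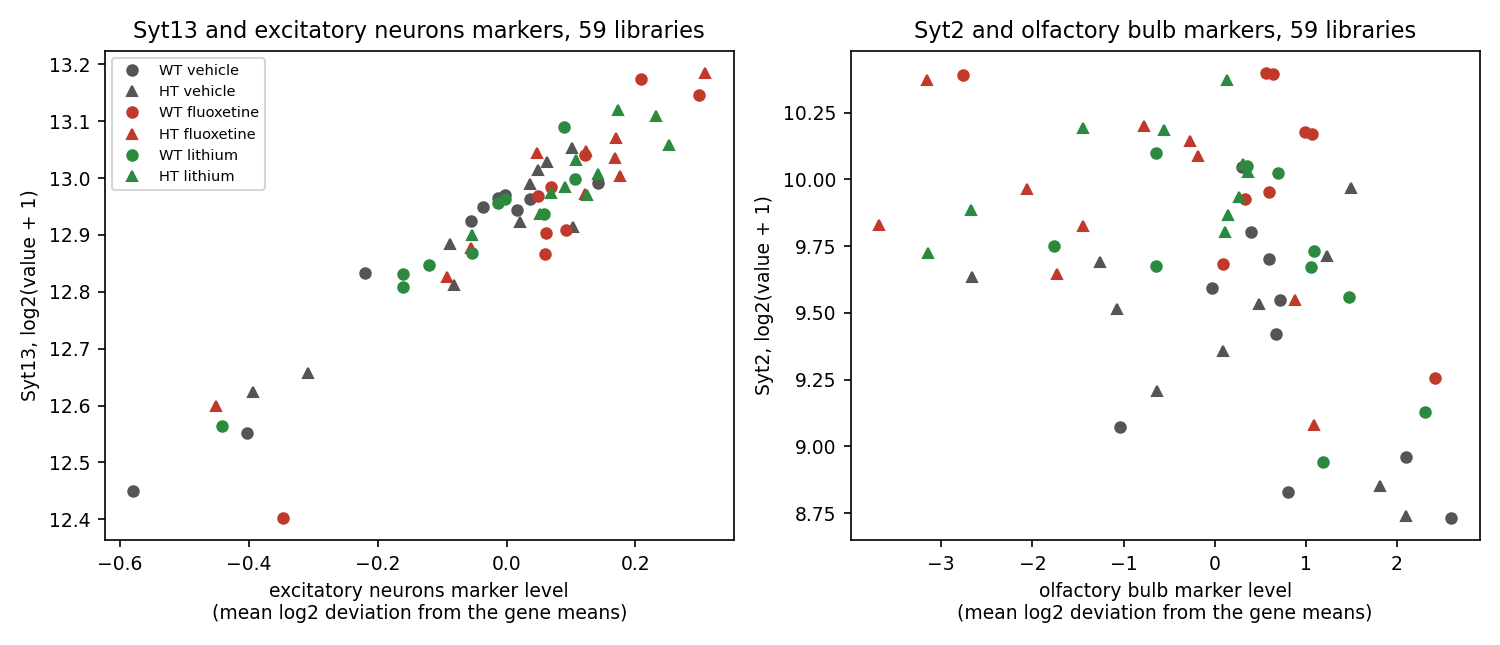
Log2 levels of Syt13 against the level of excitatory neuron markers, and of Syt2 against that of olfactory bulb markers, in 59 libraries by group (marker levels are mean log2 deviations from the gene means). Syt13 follows its markers closely (r = 0.95 within groups), and Syt2 tends to be lower where olfactory bulb markers are high (r = -0.39 within groups).

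The genes most like each member over the same 59 libraries, among 12901 compared, were named by the highest r. For Syt2 they were Nos1ap (0.84), an adaptor of neuronal nitric oxide synthase, Cntnap1 (0.83), a protein of the axonal paranode, and Scn2b (0.83), a sodium channel subunit. Syt1 was nearest to Kifap3 (0.94), Rap1gds1 (0.93) and Gabrb2 (0.92), and Syt4 to Prkacb, Mtpn and Gabra4 (each 0.91). For Syt13 the vesicular glutamate transporter gene Slc17a7 led with 0.96, before Sel1l3 and Gabbr2 (each 0.94). Syt7 was near to Dab2ip (0.89) and Slc12a5 (0.84), and Syt11 to Hsp90ab1 (0.88), Hspa12a and Slc24a2 (each 0.87).

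Syt3 was nearest to Coro2b (0.82), Adora1 (0.81) and Nbea (0.80), and Syt5 to Prss12 (0.84), Reep1 (0.83) and Rprm (0.79). Syt17 was nearest to Ccn3 (0.84), B3gat1 (0.82) and Nyap1 (0.81). Syt12 had no close neighbour, with Atf6 (0.61), Sorcs3 (0.56) and Mgat3 (0.54) as its nearest.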

How the data were processed

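The values deposited are a signal, made by the authors from estimated counts per gene after scaling each library. Libraries came from a TruSeq Stranded mRNA kit, as the labels' protocols state. The authors' software was Salmon 0.11.2, DESeq2 1.19.11 and R 3.6.0, and the build GRCm38, per the submitters' processing notes. Their settings are not given in the sources used here. Between 29.3% and 71.3% of low values of a library were whole multiples of its step, taken as its most frequent low value (tolerance 0.1 steps). Reads were therefore not recovered and no count test was run. No 2 libraries held identical values.

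Values were taken as log2(value + 1) for 16908 genes with a mean of at least 10, so changes of low genes are understated. Using limma 3.58.1 under R 4.3.3, 1 model of 12 genotype, drug and sex means was fitted (trend, robust, 47 residual degrees of freedom) in 12 comparisons. These average the sexes, except the comparison of the sexes and those of each drug response between the sexes. Tests were two-sided with Benjamini-Hochberg adjustment over all genes, and adjusted p under 0.05 counted as called. The script was tested on simulated data. Annotation, levels and plots used Python 3.11.15, pandas 2.3.3, NumPy 2.4.6 and matplotlib 3.10.9, with GENCODE gene models of GRCm38.

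The members and gene lists were chosen with earlier results of these data known. Named beside the members were Ank2, up to 3 called genes of a pathway list with the smallest p in the fluoxetine comparisons, defining cell type markers and the 3 genes most like each member. For Syt7, 1 of these is not reported here. Genes called with lithium were named for the parvalbumin list after their values were seen. Libraries stood apart where the olfactory bulb level was over 1.5, the striatal level over 0.7 or the dentate gyrus level over 4 log2 units from the gene means (19 libraries, 40 left). Groups came from the labels.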

Additional observations from a re-analysis of the deposited data

Results flagged for a closer look

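Each of the 10 genes was examined in each of 6 groups of 9 or 10 libraries. In 4 of these 60 sets, all from 3 libraries, 1 level stood farther from the nearest other library than Dixon's 95% limit allows, and chance alone passes that limit in about 1 in 20 sets. Syt3 in HT fluoxetine female replicate 2 was at 1629, where the remaining libraries of the group held 1054 to 1342. Syt4 in the same library was at 3794, below 5512 to 7149 in the others. Syt12 in WT lithium male replicate 1 was at 1370.4, above 906 to 1145 in the others. Syt13 in WT fluoxetine male replicate 1 was at 5412, below 7471 to 9248 in the others.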

How the results depend on the processing

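Each comparison was repeated with a pseudocount of 10, no filter on low values, another scaling, only the groups compared in the fit, a length and GC correction, a replicate block and each library left out, and with 2 settings chosen after seeing the data. The length and GC correction was read for the 10 members and not for the gene lists. No called member changed sign. The count of members called in WT fluoxetine, from which nothing is read, was 1. It became 2 (Syt2 and Syt7) with the length and GC trend removed, 0 without the libraries that stood apart, and 1 to 2 with each library left out. In HT lithium it was 1, and became 0 with no filter on low values, 0 with marker covariates, 0 without the libraries that stood apart, and 0 to 2 with each library left out. In HT fluoxetine and in WT lithium it was 0, and 0 to 1 with each library left out. For sex it was 0, and became 1 with the length and GC trend removed and 0 to 1 with each library left out. Replicate numbers showed little pairing: deviations of libraries with the same number had a median r of 0.02 (145 pairs), against 0.00 for other numbers. Of pairs with the same number 31.7% had r over 0.1, against 26.0% of the 580 others. Same-number values ran from -0.35 to 0.56, so the median cannot exclude that some libraries are paired. Litters shared across numbers were not examined. With the replicate block Syt2 was at 0.66 in WT fluoxetine and 0.58 in HT lithium (adjusted p = 0.044 by limma), and the counts of members called did not change. These numbers were compared and blocked within each sex, which leaves no such fit for the comparison of the sexes. With a block on the number shared by the sexes, added after seeing the data, 0 members were called for sex and Syt11 was at -0.06 (adjusted p = 0.1 by limma). Depth is an estimate here, and counting error is contained within the spread of the libraries.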

Other observations

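Of the 7 other synaptotagmin genes of the table, Syt16 was at 431 per kb, above Syt12 and Syt2, and ran from 2423 to 4241 over the 59 libraries. Syt8 was at a mean of 0.67 and failed the filter on low values. Syt6 and Syt10 ran from 220.5 to 3482 and from 68.3 to 657 over the 59 libraries. Syt6 was highest in WT vehicle female replicate 1 and Syt10 in WT fluoxetine male replicate 1. Olfactory bulb markers of these libraries stood 2.59 and 2.42 log2 units above the gene means. In HT fluoxetine libraries Syt15 fell from 50.03 ± 8.2 (SD, n = 10) in vehicle to 34.6 ± 6.6 (SD, n = 10), a log2 difference of -0.53 (SE 0.13, adjusted p = 0.0026 by limma), beside 14% of all genes called, and it was the 1 called of the 6 tested over both drugs in either genotype. Its lowest level, 21.03, was that of HT fluoxetine female replicate 2. Without that library the difference was -0.45 (adjusted p = 0.009), and without the 19 libraries that stood apart it was -0.50 and was not called (adjusted p = 0.062). In WT fluoxetine libraries Syt15 was at 0.16 (adjusted p = 0.49). Syt6 was at -0.68 in HT fluoxetine (SE 0.26, adjusted p = 0.065), and its lowest level, 220.5, was also that of HT fluoxetine female replicate 2. Without that library Syt6 was at -0.44, and without the 19 libraries at -0.11 (adjusted p = 0.84). Syt14 was at 0.14 in HT fluoxetine (SE 0.05, adjusted p = 0.075) and at 0.11 in WT fluoxetine (adjusted p = 0.19).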
